A study of Mus musculus with 28 samples.

Results

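Bidirectional protein-coding promoters are stretches of DNA from which a pair of neighbouring genes is transcribed in opposite directions, away from each other. Here a pair was a minus-strand and a plus-strand protein-coding gene on chromosomes 1 to 19, head to head, whose annotated 5′ ends (TSSs) lay at most 1000 bp apart. The region of a pair ran from 1 kb outside the minus-strand TSS to 1 kb outside the plus-strand TSS. The rule found 734 pairs with 1448 genes, out of 20807 protein-coding genes on these chromosomes and 21951 in the whole annotation. The rule used no measured value, but it was chosen with earlier results of these data known.

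The regions were read in 4 deposited lists of ICuRuS, which profiles a histone post-translational modification (hPTM) by CUT&RUN (CnR) in nuclei that were purified from 1 cell type by INTACT. The nuclei came from the bilateral striatum of male and female C57BL/6J mice of about 8 weeks. The paper's results state a wider range of ages. They propose age among several sources of a global difference in signal between A2a and D1. A2a nuclei were taken from Sun1-sfGFP;A2a-cre mice and D1 nuclei from Sun1-sfGFP;Drd1-cre mice, so the nuclear tag was set by Cre under Adora2a or Drd1, and both groups carried the Sun1-sfGFP allele at Rosa26 and received no treatment. H3K4me3 was profiled with an Abcam antibody and H3K27me3 with an Active Motif antibody, with 2 replicates per cell type and mark and INTACT run on single mice. The study's methods speak of biological replicates and its reporting form of technical ones, so the replicates may not be separate animals. Each list pools its replicates, so no value below has a spread between mice, and no difference between A2a and D1 was tested. The intervals are Wilson intervals at the 95% level and cover counting error over regions only. For the D1 H3K27me3 libraries the source label names A2a nuclei, whereas the title and the cell type name D1. They were taken as D1, and all contrasts of islands between the cell types depend on that reading. An island within 1 kb of the TSS of Adora2a, the gene that drives Cre in the A2a line, was listed in D1 and not in A2a, while the other 5 markers named below had one in both lists.

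H3K4me3 is written by SET1 and MLL methyltransferase complexes on the nucleosomes beside active or poised TSSs, and it is densest at CpG-rich promoters. H3K27me3 is written by Polycomb repressive complex 2 and spreads over silent genes, many of them regulators of development. Head-to-head gene pairs are known for genes that most cells need, such as those of DNA repair, mitochondria and protein synthesis, and their shared promoters are often CpG-rich and without a TATA box.

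H3K4me3 within 1 kb of the TSS was listed in both cell types at the A2a markers (Penk, Drd2, Adora2a) and at the D1 markers (Tac1, Pdyn, Drd1), and none of these genes belongs to a pair. Of the markers of other striatal cells, 5 of 7 oligodendrocyte genes, 2 of 5 astrocyte genes and 2 of 5 microglia genes had such a peak in A2a, against 4 of 7, 2 of 5 and 0 of 5 in D1. None of these is a pair gene either, and the part of other cells in the results below was not tested. The A2a lists held 22551 H3K4me3 peaks and 60191 H3K27me3 islands, and the D1 lists held 20080 and 45760. The depth of the libraries is not known from the lists, so values were ranked within their own list.

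The stretch between the TSSs was short, with a median of 128 bp and a range of 1 to 987 bp. In 306 pairs it was at most 100 bp, in 296 it was longer and up to 300 bp, in 64 it was over 300 and up to 500 bp, and in 68 it was over 500 bp. To show what such promoters look like, 8 stretches are printed below, each with 40 bases beyond either TSS, in the plus-strand direction of mm10 (GRCm38, RefSeq sequence). Capitals mark matches, on either strand, to 8 short words that were searched. These were ETS (CCGGAAG), the NRF1 core (GCATGCGC), the YY1 core (AAGATGGC), CRE (TGACGTCA), the SP1 box (GGGCGGG), the CCAAT box (CCAAT), the TATA box (TATAAA) and the E-box (CACGTG). No word contains another, and CRE and the E-box read the same on both strands. The first 4 stretches carried strong H3K4me3 peaks in both lists and no island, and they hold matches to ETS, YY1, NRF1, SP1, CCAAT or E-box words. Brca1/Nbr1 is a textbook pair. Nr2e1/Ostm1 had the pair island with the most reads in each list. Col4a4/Col4a3 and Ifit1bl2/Ifit1 had islands and no peak, and hold no match. The 8 are examples, and over all pairs the words differed. In the 300 bases around the midpoint, the CCAAT box was found in 48.6% of 37 pairs with no peak in either list. It was found in 44.6% of 690 pairs with a peak in both, whereas ETS was found in 5.41% and 29.6%.
Uqcrh/Lrrc41, chr4:116075031-116075309: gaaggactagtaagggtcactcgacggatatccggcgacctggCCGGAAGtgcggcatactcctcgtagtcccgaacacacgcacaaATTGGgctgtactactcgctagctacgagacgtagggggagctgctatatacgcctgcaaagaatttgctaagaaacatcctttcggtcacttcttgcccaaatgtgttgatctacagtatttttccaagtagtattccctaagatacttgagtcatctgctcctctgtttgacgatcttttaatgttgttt
Zfp408/Arhgap1, chr2:91649751-91649900: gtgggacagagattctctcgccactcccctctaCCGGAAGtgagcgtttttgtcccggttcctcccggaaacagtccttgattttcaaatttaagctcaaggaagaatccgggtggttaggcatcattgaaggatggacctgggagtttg
Mrpl32/Psma2, chr13:14613125-14613280: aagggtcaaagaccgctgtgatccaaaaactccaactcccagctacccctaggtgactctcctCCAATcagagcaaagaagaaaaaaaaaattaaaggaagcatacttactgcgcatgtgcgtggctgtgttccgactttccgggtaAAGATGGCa
Bckdha/Exosc5, chr7:25658941-25659204: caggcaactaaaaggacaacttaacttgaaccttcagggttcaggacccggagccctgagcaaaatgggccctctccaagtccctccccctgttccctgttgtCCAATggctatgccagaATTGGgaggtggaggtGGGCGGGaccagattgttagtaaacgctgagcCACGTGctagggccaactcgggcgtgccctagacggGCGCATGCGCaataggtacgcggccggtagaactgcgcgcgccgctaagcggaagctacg
Brca1/Nbr1, chr11:101551915-101552189: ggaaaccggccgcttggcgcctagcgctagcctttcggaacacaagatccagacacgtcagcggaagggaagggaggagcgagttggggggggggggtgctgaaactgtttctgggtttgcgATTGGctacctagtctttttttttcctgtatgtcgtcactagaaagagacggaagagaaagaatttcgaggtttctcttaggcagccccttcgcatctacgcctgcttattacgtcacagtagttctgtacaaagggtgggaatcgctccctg
Nr2e1/Ostm1, chr10:42583592-42583862: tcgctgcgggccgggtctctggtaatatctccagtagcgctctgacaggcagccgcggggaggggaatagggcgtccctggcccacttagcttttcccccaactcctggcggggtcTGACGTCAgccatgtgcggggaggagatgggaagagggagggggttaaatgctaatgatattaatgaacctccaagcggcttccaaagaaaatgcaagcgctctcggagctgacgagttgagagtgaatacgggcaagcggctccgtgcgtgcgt
Col4a4/Col4a3, chr1:82586809-82586961: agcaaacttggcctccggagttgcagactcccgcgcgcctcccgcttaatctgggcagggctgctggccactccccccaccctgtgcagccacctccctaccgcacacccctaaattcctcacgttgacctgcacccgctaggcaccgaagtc
Ifit1bl2/Ifit1, chr19:34640703-34640911: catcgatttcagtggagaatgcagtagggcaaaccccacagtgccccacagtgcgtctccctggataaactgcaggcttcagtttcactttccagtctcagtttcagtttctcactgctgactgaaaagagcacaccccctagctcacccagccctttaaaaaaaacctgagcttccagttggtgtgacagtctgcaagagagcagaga
The 8 stretches differed in base composition. Bckdha/Exosc5 had a GC content of 59.5% and 18 CpG dinucleotides in 264 bases, whereas Ifit1bl2/Ifit1 had 50.2% and 2 CpG dinucleotides in 209 bases. Bckdha/Exosc5 held 6 matches, the most of the 8, and its NRF1 words on either strand overlap in 1 run of capitals.

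Nearly every pair region carried H3K4me3. In A2a, 696 of 734 regions overlapped a peak (94.8%, interval 93.0 to 96.2), and in D1 it was 691 (94.1%, 92.2 to 95.6). Over all protein-coding genes of these chromosomes, 58.7% had a peak within 1 kb of the TSS in A2a and 56.3% in D1. H3K27me3 was rare at the pairs. An island overlapped 35 regions in A2a (4.77%, 3.45 to 6.56) and 26 in D1 (3.54%, 2.43 to 5.14), against 21.2% and 15.0% of all genes. Both marks were found at 25 regions in A2a (3.41%, 2.32 to 4.98) and at 12 in D1 (1.63%, 0.938 to 2.84), against 9.06% and 5.27% of all genes.

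The same picture held gene by gene, in the window of 1 kb on either side of the TSS that was also used for all genes. Of the 1448 pair genes, 94.8% had a peak in A2a and 94.1% in D1, whereas the 19359 genes in no pair had 56.0% and 53.5%. An island was found at 4.77% of pair genes in A2a and 3.52% in D1, and at 22.4% and 15.8% of the other genes. Leaving receptor families and predicted names out of the other genes gave 64.6% and 61.7% for H3K4me3 and 24.4% and 17.5% for H3K27me3. Pair genes were thus marked by H3K4me3 more often and by H3K27me3 less often than other genes in both lists, with intervals that do not overlap. Genes of 1 pair share their region, so they are not independent of each other. The window of a pair gene also holds the TSS of its partner, so a peak or island at the partner counts for both genes. The shares are thus not like for like with those of other genes. This also applies to the regions above and to the shares by CpG content below.

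Base composition moved with this. Of the pair genes, 82.5% had a CpG-rich promoter, here a window from 250 bases before to 50 bases after the TSS with a GC content of at least 50% and a CpG observed-over-expected ratio of at least 0.6. Of the other genes it was 39.5%. Among CpG-rich promoters the H3K4me3 shares of pair and other genes were 98.2% and 93.1% in A2a and 97.8% and 90.9% in D1. Among the same promoters the H3K27me3 shares were 3.60% and 17.6% in A2a and 2.18% and 13.8% in D1. Between CpG-rich genes the H3K4me3 shares thus lay closer together than over all genes, while the H3K27me3 share of pair genes stayed below that of other genes, with intervals that do not overlap. Among promoters that were not CpG-rich, 78.3% of 254 pair genes had a peak in A2a against 31.8% of 11715 other genes, and 76.8% against 29.1% in D1. Their H3K27me3 shares were 10.2% and 25.5% in A2a and 9.84% and 17.1% in D1.

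**Figure D1:**
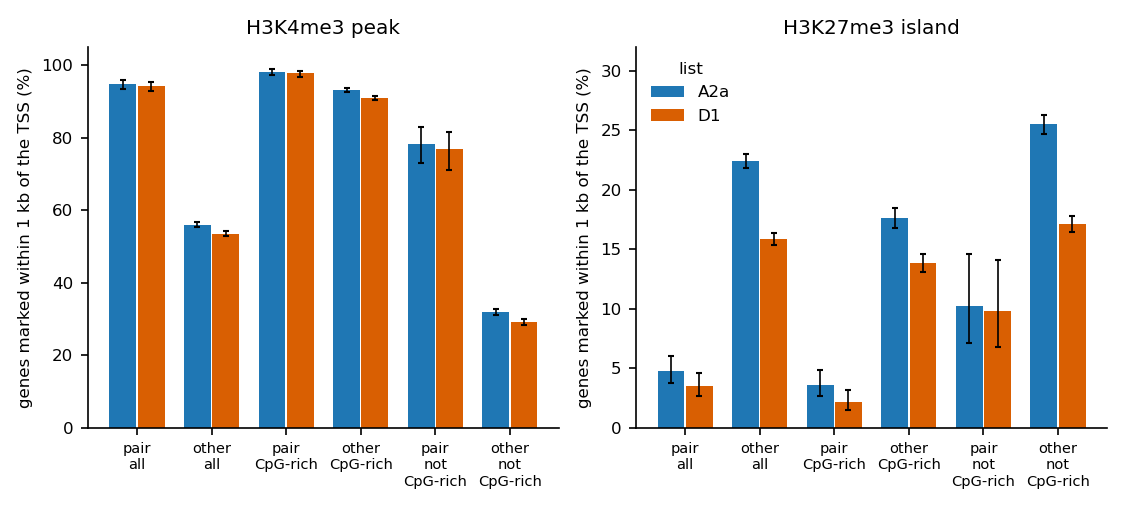
Share of genes (y axis, %) with an H3K4me3 peak (left) or an H3K27me3 island (right) within 1 kb of the TSS, for pair genes and other genes, all and split by CpG content; bars are the A2a and D1 lists and error bars are Wilson 95% intervals. Pair genes reach 94.8% and 94.1% for H3K4me3, and CpG-rich pair genes 3.60% and 2.18% for H3K27me3 against 17.6% and 13.8% of other CpG-rich genes.

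The promoter words followed the same windows. ETS was found in 27.6% of pair genes and in 11.03% of all genes, YY1 in 8.15% and 2.93%, and NRF1 in 6.91% and 3.45%. Between CpG-rich windows the shares of pair and other genes were 30.9% and 18.1% for ETS, 8.96% and 4.17% for YY1, and 7.71% and 6.34% for NRF1. ETS and YY1 words were thus more frequent in pair windows also among CpG-rich promoters, and the intervals for NRF1 overlapped (6.32 to 9.36 and 5.82 to 6.91). For all words, the windows of the genes of a pair mostly overlap. A word can thus count for both genes, and the intervals of pair genes are too narrow. Pair windows also often hold the TSS of the partner, so they are not like for like with those of other genes. The TATA box was found in 4.14% of pair genes and 12.7% of all genes, and in 2.26% and 5.23% of the CpG-rich windows of pair and other genes. The SP1 box was found in 50.5% of pair genes and 32.1% of all genes, but in 55.4% and 57.7% of CpG-rich windows. CRE, the CCAAT box and the E-box were found in 4.63%, 43.6% and 11.6% of pair genes and in 2.43%, 38.6% and 7.82% of all genes. Between CpG-rich windows of pair and other genes, intervals overlapped for CRE (5.03% and 4.03%) and the E-box (12.6% and 11.9%), and the CCAAT box stayed higher in pairs (42.8%, 40.02 to 45.6, against 36.5%, 35.4 to 37.6). Across pairs, the 300 bases around the midpoint held an ETS word in 204 of 690 pairs with a peak in both lists (29.6%), in 2 of 37 pairs with no peak (5.41%), and in 1 of 37 pairs with an island (2.70%). A match is only a run of letters, and binding was not measured here.

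**Figure D2:**
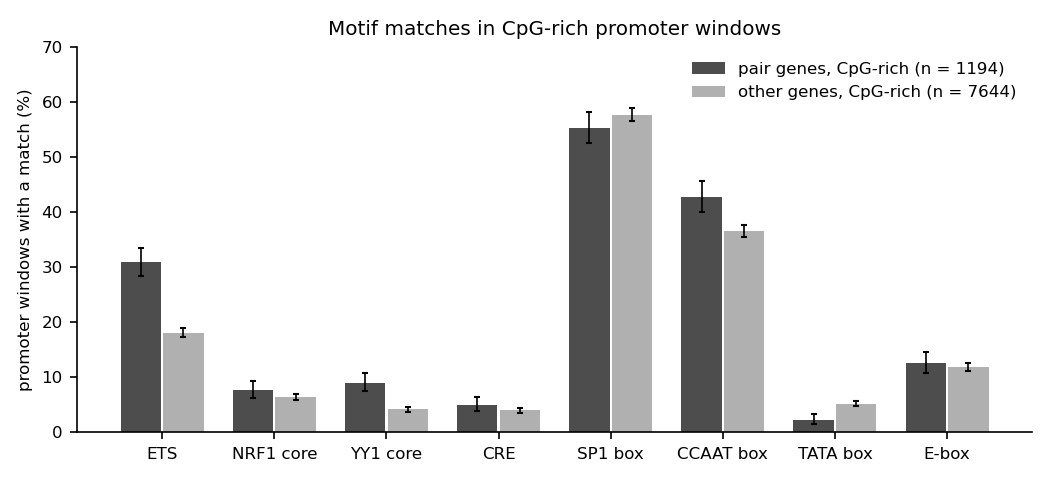
Share of CpG-rich promoter windows (y axis, %) with at least 1 match to each word, for 1194 pair genes (dark) and 7644 other genes (light); error bars are Wilson 95% intervals. ETS and YY1 stand at 30.9% and 8.96% in pair genes, above 18.1% and 4.17% in other genes, and the TATA box stands at 2.26% against 5.23%. The windows of the genes of a pair mostly overlap, so a word can count for both and the pair intervals are too narrow.

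A single peak usually lay over the whole promoter. It held both TSSs in 650 of 696 marked regions in A2a (93.4%, 91.3 to 95.01) and in 642 of 691 in D1 (92.9%, 90.7 to 94.6). The stretch between the TSSs is short, with a median of 128 bp. At other genes, peaks over the TSS reached a median of 441 bp upstream in A2a and 398 bp in D1. The 10th percentile of that reach was 121 and 117 bp, so a high share is expected from the distance alone. In no region of either list did separate peaks hold the TSSs. The rule leaves little room for this, since 602 of the 734 pairs were at most 300 bp apart. The shortest listed peak was 0.24 kb in A2a and 0.234 kb in D1. A peak held the minus-strand TSS alone in 18 regions in A2a and 16 in D1, held the plus-strand TSS alone in 18 and 21, and held neither TSS in 10 and 12. The layout was the same in both lists in 668 of 690 pairs (96.8%).

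The share with 1 peak over both TSSs was lowest in the pairs farthest apart. A longer stretch needs a longer peak to hold both TSSs, so a lower share is expected from the distance alone. It was 98.6%, 94.7%, 93.4% and 61.02% in A2a for pairs with a distance of up to 100, 300, 500 and 1000 bp, in bins that do not overlap. In D1 it was 97.3%, 94.3%, 95% (57 of 60) and 61.4%, so the third bin lay slightly above the second. Among 104 head-to-head pairs over 1000 and up to 2000 bp apart, which are outside the rule, 79 had a peak in A2a and 76 in D1, and 1 peak held both TSSs in 17.7% and 14.5% of these. Separate peaks held the TSSs in 20.3% and 18.4% of them. The widest pair within the rule was Btf3l4/Txndc12 at 987 bp, with a peak of 2.60 kb in A2a and 2.45 kb in D1 over both TSSs. The pair just beyond it was Gpr108/Trip10 at 1009 bp, with a peak of 1.75 kb in A2a and 1.56 kb in D1 over the minus-strand TSS only.

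The strongest peak of a pair had a median length of 1.81 kb in A2a and 1.69 kb in D1. Peaks over the TSS of other genes had medians of 1.62 kb and 1.52 kb, and those of other CpG-rich genes 1.68 kb and 1.57 kb. Peaks over both TSSs reached a median of 830 bp into the minus-strand gene and 820 bp into the plus-strand gene in A2a, and 772 and 766 bp in D1. Peaks of other genes reached 1107 bp downstream and 441 bp upstream in A2a, and 1045 and 398 bp in D1. Which gene of a pair lies on the minus strand is arbitrary, so near-equal medians are expected whatever the shape of single peaks. Peaks of other genes, which were oriented by transcription, lay mainly inside the gene. Within single pairs the reaches were not equal, with a median difference of 348.5 bp in A2a and 353 bp in D1. The difference between the reaches correlated between A2a and D1 (Pearson's r = 0.95, Spearman's rho = 0.95 over 633 pairs, with the libraries and the gene annotation shared by all points).

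**Figure D3:**
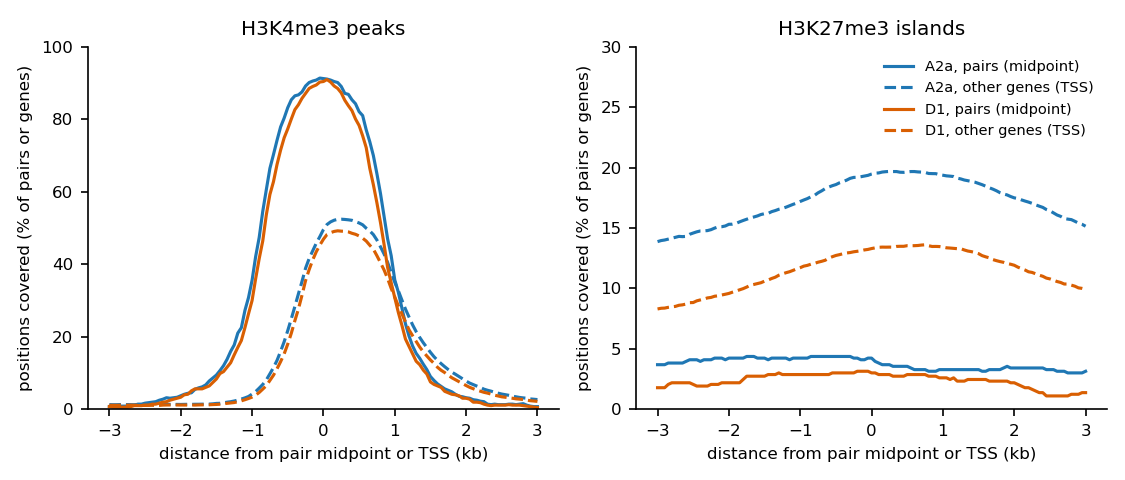
Share of pairs (solid lines) and of other genes (dashed lines) covered by an H3K4me3 peak (left) or an H3K27me3 island (right) at each distance, in kb, from the midpoint of the pair or from the TSS; the plus-strand gene of a pair and the body of other genes lie to the right. At the midpoint 91.3% of pairs were covered by H3K4me3 in A2a and 90.5% in D1, and 500 bp to the left and right 83.2% and 82.2% in A2a, whereas other genes were covered at 21.7% and 51.4% there. Left and right of a pair are set by strand, which is arbitrary, so even pair lines are expected.

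The summit of the strongest peak lay between the TSSs in 139 of 696 regions in A2a (19.97%) and in 183 of 691 in D1 (26.5%). It lay outside, on the side of either gene, in 80.03% (76.9 to 82.8) and 73.5% (70.1 to 76.7). The stretch had a median of 128 bp, against median peak lengths of 1.81 kb in A2a and 1.69 kb in D1. Most summits are thus expected outside it. At other genes, the summit stood a median of 245 bp downstream of the TSS in A2a and 158 bp in D1. There were 275 summits on the minus-strand side and 282 on the plus-strand side in A2a, and 250 and 258 in D1. Near-equal counts are expected, since the strand of either gene is arbitrary. Where the summit lay outside in both lists, it was on the same side in 428 of 484 pairs (88.4%). Over all outside summits of each list, 557 in A2a and 508 in D1, the median distance into the gene was 186 bp and 117 bp. Summits between the TSSs made up 4.41% of A2a-marked pairs at most 100 bp apart and 50.8% of those over 300 and up to 500 bp apart, and 5.44% and 66.7% in D1. A longer stretch leaves more room for a summit between the TSSs by construction. Above 500 bp the share was lower again, at 33.9% (20 of 59) in A2a and 38.6% (22 of 57) in D1.

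The peaks of pairs ranked high within their lists by −log10 q. The strength of a peak was its percentile by −log10 q within its list, where 100 is the strongest. The strongest peak of a pair had a median percentile of 82.7 in A2a and 85.3 in D1, beside 73.0 and 71.6 for peaks over the TSS of other genes and 74.2 and 73.4 for those of other CpG-rich genes. Both percentiles were at least 50 in 640 of the 690 pairs marked in both lists, and at least 90 in 177. The median fold enrichment, a ratio over the local background, was 7.88 in A2a and 8.11 in D1, beside 7.81 and 7.62 for peaks over the TSS of other genes. By fold the pairs were thus about level with other genes in A2a.

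By the smaller of the percentiles, the leading pair was Alg2/Sec61b on chromosome 4, 325 bp apart, a mannosyltransferase of N-glycan assembly and a subunit of the Sec61 translocon. Its peak was enriched 13.2-fold in A2a and 15.01-fold in D1, with percentiles of 99.97 and 99.99, and its summit lay between the TSSs. Timm9/2700049A03Rik, with a chaperone of the mitochondrial intermembrane space, had 13.4 and 13.0. Tada3/Arpc4 (a histone acetyltransferase adaptor and an Arp2/3 subunit) had 12.01 and 12.7, Bckdha/Exosc5 (a branched-chain ketoacid dehydrogenase subunit and an RNA exosome subunit) had 13.8 and 14.1, and Mau2/Sugp1 (a cohesin loader and a splicing factor) had 10.4 and 10.6. All 5 had 1 peak over both TSSs and no island. The longest single peaks over both TSSs were at Cdc40/Wasf1 (a splicing factor and an actin regulator of the WAVE complex), with 3.97 kb in A2a and 3.86 kb in D1, at Slc30a7/Extl2 (a zinc transporter and a glycosyltransferase), with 3.82 and 3.54 kb, and at Cep57l1/Sesn1, with 3.47 kb in both lists.

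Percentiles of A2a and D1 correlated over the 690 pairs (Pearson's r = 0.80, Spearman's rho = 0.77). Each point is a region read in the same pair of libraries, and regions share base composition, so this is a description. The percentile was higher in A2a in 344 pairs (49.9%), and the median absolute difference was 6.24 points, beside 7.47 points over 8952 other genes with a peak over the TSS in both lists.

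**Figure D4:**
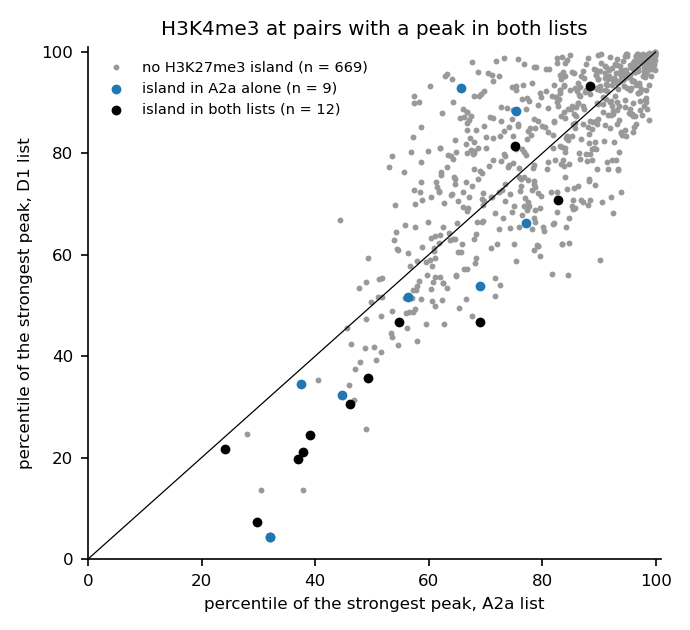
Percentile of the strongest H3K4me3 peak by −log10 q in the A2a list (x axis) and in the D1 list (y axis) for the 690 pairs with a peak in both; each point is a pair, coloured by its H3K27me3 islands, and the line marks equal percentiles. Of the 669 pairs without an island, 327 lie on the A2a side of the line, and of the 21 pairs with an island in either list, 17 do. The A2a list is the longer, so a weak peak has a higher percentile there at the same rank from the top.

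A peak was listed in 1 cell type alone at 7 pairs, and all these peaks ranked low by −log10 q. In A2a alone these were 6 pairs. Sgsh/Slc26a11 (a lysosomal sulfohydrolase and an anion transporter), 21 bp apart, had the strongest, with a fold enrichment of 7.62 at percentile 33.7. By fold it was not weak, since the median over all A2a peaks was 6.65. Lsr/Fam187b had 4.88 at percentile 17.8 and Kirrel2/Nphs1, a pair of adhesion molecules of the kidney slit diaphragm, had 4.49 at percentile 14.0. The others were Gm10447/Shroom1, Il17rb/Chdh and Lrrc74b/P2rx6, between percentiles 3.52 and 12.4. Of the 6, 4 had an island in both lists. In D1 alone it was 1 pair, Tradd/Fbxl8, with a fold enrichment of 2.59 at percentile 11.9, and Tradd encodes an adaptor of the tumour necrosis factor receptor. All 7 peaks lay below the 50th percentile of their list, whereas the median pair lay above the 80th.

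Some pairs had a peak over the same TSS only in both lists. The strongest were Hmmr/Nudcd2, enriched 11.01-fold in A2a and 13.7-fold in D1 on the Nudcd2 side, and Prr11/Ska2, with 10.4 and 10.8 on the Ska2 side. Abhd12/Gins1 had 6.89 and 6.40 on the Abhd12 side, Rhno1/Foxm1 had 9.91 and 9.21 on the Rhno1 side, and Haghl/Ccdc78 had 10.7 and 10.4 on the Haghl side. The genes left outside the peak were Hmmr, a spindle and hyaluronan-binding protein, Prr11, a cell-cycle gene, Gins1, a subunit of the replicative helicase, Foxm1, a transcription factor of dividing cells, and Ccdc78, a centriole gene of multiciliated cells. At Rhno1/Foxm1 the TSSs are 56 bp apart and the reach into Foxm1 was -34 bp in A2a and -7 bp in D1, a negative reach being an edge short of the TSS. At Hmmr/Nudcd2 the reach into Hmmr was -91 bp and -55 bp. At Brca1/Nbr1 the peak passed the Brca1 TSS by 18 bp in A2a and 19 bp in D1 and ran 1617 and 1480 bp into Nbr1, an autophagy receptor. The peak thus held both TSSs there, but nearly all of it lay on the Nbr1 side.

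Gene lists, which were matched by symbol, placed the pairs by function. Of 275 genes for mitochondrial proteins, 51 were in 49 pairs, and all 49 had a peak in both lists and none had an island. Median percentiles were 88.5 in A2a and 86.7 in D1. Uqcrh/Lrrc41, with a subunit of respiratory complex III, had a peak of 2.60 kb in A2a and 2.51 kb in D1, at 7.39-fold and 8.60-fold enrichment. All 45 pairs with a gene of the transcription machinery or splicing were marked in both lists, 1 with an island in A2a, and the strongest were Bysl/Med20 (15.8-fold and 14.3-fold) and Taf6/Cnpy4 (15.8-fold and 13.7-fold). All 22 pairs with a proteasome or chaperone gene were marked, without an island, led by Mrpl32/Psma2 with 9.80-fold and 11.3-fold, and by Cep76/Psmg2 with 9.58-fold and 10.1-fold.

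Of 40 pairs with a gene of DNA repair or replication, 39 had a peak in each list and 1, Pxmp2/Pole, had an island in both. Osgep/Apex1 (a tRNA-modifying enzyme and the main apurinic endonuclease) had 7.17-fold and 7.37-fold peaks and Rad17/Taf9 (a checkpoint loader and a TFIID subunit) had 7.25-fold and 8.98-fold peaks. Of 22 pairs with a translation gene, 21 were marked and none had an island, with Iqcg/Rpl35a at 10.0-fold and 11.7-fold and Zwilch/Rpl4 at 10.1-fold and 9.52-fold. Of 23 pairs with a zinc finger gene, 22 were marked and 1 had an island in each list, and Zfp672/Sh3bp5l led with 12.5-fold and 12.8-fold, followed by Zfp408/Arhgap1 with 10.3-fold and 10.2-fold. Over all annotated genes of these 6 lists, pair or not, the share with an A2a peak ran from 81.8% for zinc finger genes to 94.5% for transcription and splicing. The share with an island in A2a and D1 was 11.4% and 7.14% for proteasome and chaperones, 7.66% and 5.03% for zinc fingers, 6.90% and 5.52% for DNA repair and replication, 3.64% and 1.09% for mitochondrial proteins, 3% and 0% for transcription and splicing, and 2.56% and 3.08% for translation. The counts of their pairs are to be read beside these shares, since the lists as a whole are themselves above the 58.7% of all genes with a peak and below the 21.2% and 15.0% with an island.

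Neuronal and tissue-specific lists had few pairs. Only 6 of 341 developmental transcription factors were in pairs, and 5 of these 6 pairs had a peak in both lists. An island was found at 5 of 6 in A2a (Foxa3/Sympk, Lypd4/Dmrtc2, Sox6/1110004F10Rik, Nr2e1/Ostm1 and Gm9922/Lmo7) and at 3 of 6 in D1 (the last 3). Lmo7 was matched by its name and encodes a LIM-domain scaffold, not a transcription factor. Over the whole list, 81.5% of genes had an island in A2a and 76.0% in D1, so most of this list carried H3K27me3 in or out of pairs. Of 4 pairs with an ion channel or receptor gene, 4 had a peak in A2a and 3 in D1, with none under an island, where the whole list had a peak at 65.6% and 63.2% and an island at 40% and 28.1% of its genes, and Hjurp/Trpm8 led with 9.42-fold and 8.37-fold. Hjurp is the chaperone of the centromeric histone, and its TSS is 28 bp from that of the cold-sensing channel Trpm8. Of 5 pairs with a gene of extracellular matrix or adhesion, 1 had an island in each list, Col4a4/Col4a3, and 2 had a peak, Adam9/Tm2d2 (8.13-fold and 7.66-fold) and Polk/Col4a3bp (6.72-fold and 6.48-fold), and the latter was matched by a name that denotes a binding protein of collagen. Of the whole list, 63.6% of genes had a peak and 41.8% an island in A2a, and 57.4% and 32.4% in D1. Of 80 pairs with a predicted or uncharacterised name, 74 had a peak in A2a and 73 in D1, and 5 had an island in each, while of all 1870 such genes 27.6% and 26.5% had a peak and 14.0% and 8.72% an island.

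Of the 6 textbook pairs, 5 had 1 peak over both TSSs in both lists and no island. Fold enrichment was 7.03 in A2a and 8.59 in D1 at Atm/Npat (a DNA damage kinase and a histone gene activator), 6.22 and 6.63 at Brca1/Nbr1, and 9.02 and 10.8 at Mcm4/Prkdc (a replicative helicase subunit and the catalytic subunit of DNA-dependent protein kinase). It was 5.62 and 7.09 at Gart/Son (a purine synthesis enzyme and a splicing cofactor) and 6.52 and 6.79 at Psmb1/Tbp (a proteasome subunit and the TATA-binding protein). At Psmb1/Tbp these values belong to a second, stronger peak inside Psmb1, whose reach into Tbp was -1027 bp in A2a and -1047 bp in D1. The sixth, Col4a4/Col4a3, had no peak.

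Replication-dependent histone genes made up 14 pairs, of which 11 had a peak in each list and none had an island. Of all 67 such genes, 85.1% had a peak and none had an island in either list, so the lack of islands holds for the whole list. Bola1/Hist2h2ab and Hist2h2ac/Hist2h2be overlap the same peak on chromosome 3, at 6.26-fold and 7.24-fold. The lowest marked pair was Hist1h2bf/Hist1h2ad, at 1.94-fold and 2.09-fold. The regions of these pairs share sequence with other places to differing degrees, and the authors kept reads with a mapping quality of at least 20. Where both genes are histone genes and a peak was listed, 20.9% to 42.1% of words of 31 bases occurred elsewhere. In the regions of the pairs without a peak, Hist1h2bq/Hist1h2ao and Hist1h2ap/Hist1h2br, 100% of the words of 31 bases occurred elsewhere on the chromosomes, and the nearest A2a peaks ended 0.593 and 0.673 kb from the regions. Whether these regions carry H3K4me3 cannot be read from the lists. The third such pair, Hist1h2ba/Hist1h2aa, had 9.49% of such words, and the nearest peak was 169.0 kb away. These are testis histone genes.

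No peak was listed at 37 pairs in either cell type. Of these, 12 had an island in 1 or both lists and 25 carried neither mark. Among the 25 are Patl2/Terb2 and Smc1b/Ribc2, where Terb2 and Smc1b act in meiosis, Klc3/Ckm, where Ckm is the creatine kinase of muscle, and Pecam1/Milr1, where Pecam1 is an adhesion molecule of endothelium, but also Cenpj/Parp4, where Cenpj is a centriole gene of dividing cells, and Slc27a5/Trim28. No gene list was applied to them, so these are examples only. The promoters of the 37 pairs were poorer in CpG than others. The 300 bases around the midpoint had a median CpG observed-over-expected ratio of 0.320 over the 37 pairs, against 0.864 over the 690 pairs marked in both lists, and 9 of 37 against 583 of 690 were CpG-rich.

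Some of the 37 held genes that most cells use. The nearest A2a peak lay within a gene of the pair in 17 of 37, at a median of 5.04 kb from the region, and the nearest D1 peak in 15. At Rnf151/Rps2, a pair with a ribosomal protein gene, it was 0.242 kb from the region in A2a and 0.528 kb in D1, inside Rps2. At Ccnt1/4930415O20Rik it was 1.10 kb away in both lists, inside Ccnt1, a cyclin of transcription elongation. At Slc27a5/Trim28, whose plus-strand gene encodes a corepressor of zinc finger proteins, it was 8.76 and 8.79 kb away, inside Trim28. The TSS used here is the outermost annotated 5′ end of a gene, so at these pairs the listed peak lay inside the gene and not at that end.

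Islands at pairs mostly ran over both TSSs. An island in the region held both TSSs in 26 of 35 regions in A2a and in 20 of 26 in D1. It was found in both lists at 24 pairs, in A2a alone at 11 and in D1 alone at 2. The median island was 7.6 kb long with 78.5 reads per kb in A2a and 4.2 kb with 47.7 reads per kb in D1, beside medians of 3.6 kb and 62.5 and of 3.0 kb and 37.2 over all islands of the lists. Reads were not normalized between the lists. A long island is more likely to meet a region, and where several did, the one with the most reads was kept. A longer median than over all islands is therefore expected for any set of regions. The length of islands at other genes was not measured. Where both lists had an island, the islands shared bases in 24 of 24 pairs, and the A2a island was the longer in 23.

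The 4 pair islands with the most reads in A2a were also the 4 longest there. At Nr2e1/Ostm1 on chromosome 10, an orphan receptor of neural stem cells beside a subunit of a lysosomal chloride transporter, the island was 39.2 kb with 6548 reads in A2a and 35.8 kb with 2970 reads in D1. Islands covered 100% of Nr2e1 in both lists, and 39.8% and 26.6% of Ostm1. A weak peak of 1.75 kb at percentile 24.2 held the Nr2e1 TSS in A2a, with a reach into Ostm1 of -11 bp, and a peak of 0.632 kb at percentile 21.6 held both TSSs in D1. At Sox6/1110004F10Rik, where Sox6 is a transcription factor of neuronal and cartilage development, the island was 18.2 kb in both lists, with 3028 reads in A2a and 1591 in D1. Islands covered 53.2% and 28.1% of Sox6, and the peak, at 7.07-fold and 5.18-fold, held neither TSS. With 16.4% and 12.5% of 1110004F10Rik covered, islands took up more of the developmental gene than of its partner at both loci.

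At Duox2/Duoxa2, an oxidase of thyroid hormone synthesis and its maturation factor, the island was 35.4 kb with 5174 reads in A2a and 21.6 kb with 1880 in D1, with no peak. Gm9922/Lmo7 had 27.6 kb and 15.6 kb with a peak over both TSSs at percentile 69.1 and 46.8th percentile. Amdhd1/Ccdc38 (a histidine-degrading enzyme in the former) had 12.4 and 10.2 kb without a peak, and Dok1/Loxl3 (a kinase adaptor and a lysyl oxidase) had 10.6 and 7.2 kb with weak peaks at percentile 29.8 and 7.34th percentile. Together, 3 of these last 4 pairs had no peak over both TSSs.

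Of the 12 pairs with an island and no peak, the next by reads in A2a were Col4a4/Col4a3, Ifit1bl2/Ifit1 and Odf3l1/Cspg4. At Col4a4/Col4a3, chains of basement membrane collagen, TSSs 72 bp apart, the island was 8.2 kb with 1091 reads in A2a and 5.0 kb with 359 reads in D1, and the nearest A2a peak was 136.4 kb away. At the interferon-induced pair Ifit1bl2/Ifit1 it was 13.4 kb with 1071 reads and 3.6 kb with 183 reads. At Odf3l1/Cspg4, with the NG2 proteoglycan of oligodendrocyte precursors and pericytes, it was 9.6 kb with 818 reads and 3.8 kb with 237 reads. The 12 pairs with an island and no peak had a median GC content of 55.2% and a median CpG ratio of 0.344, and 4 were CpG-rich.

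**Figure D5:**
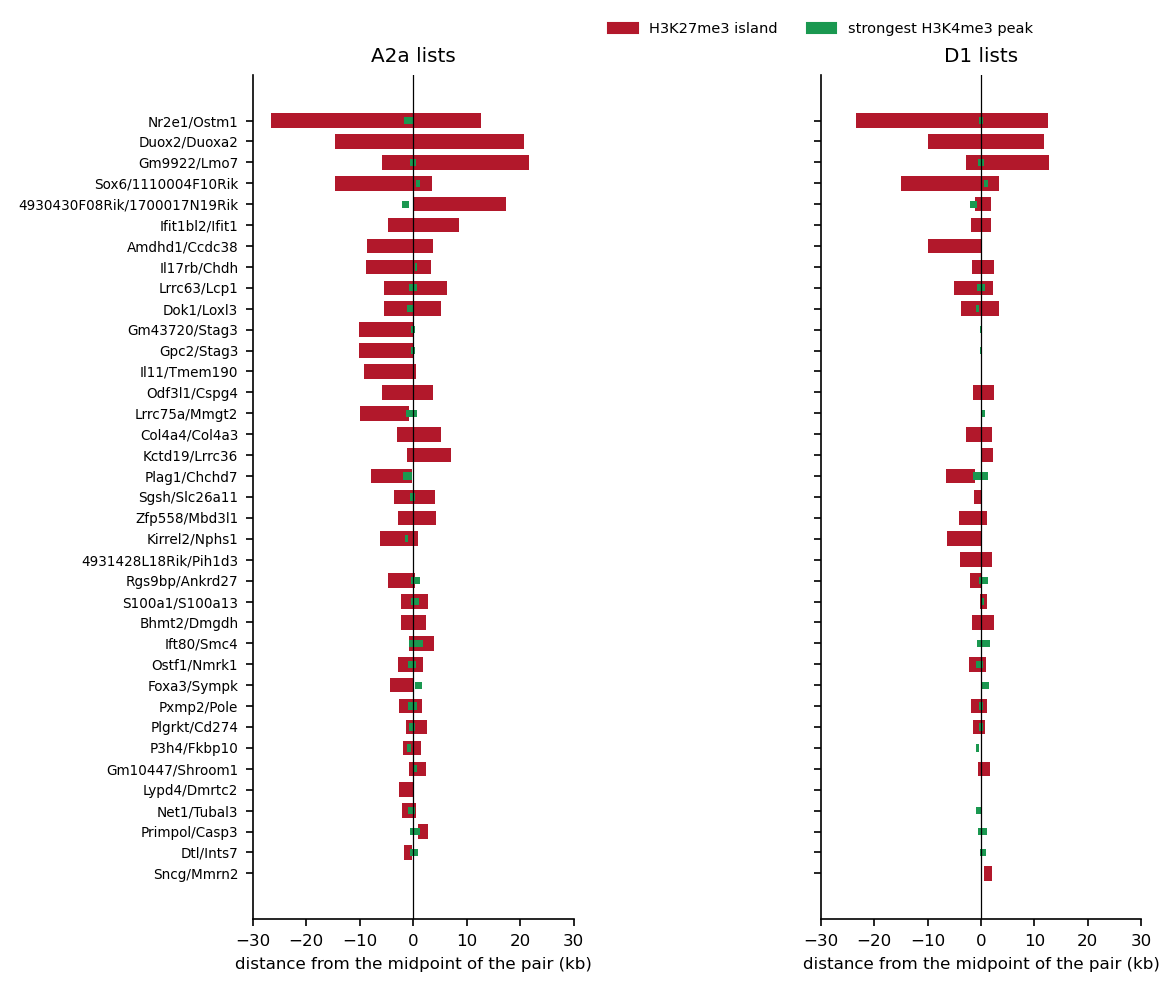
Position of the H3K27me3 island with the most reads (red) and of the strongest H3K4me3 peak (green) at the 37 pairs with an island in either list, in kb from the midpoint of the pair (x axis), for A2a (left) and D1 (right); rows are pairs, sorted by the longer island. The islands run from 39.2 kb at Nr2e1/Ostm1 in A2a to 1.4 kb at S100a1/S100a13 in D1, and 12 rows have no green bar in either panel.

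Of the islands in A2a alone, the most reads were at Gpc2/Stag3 and Gm43720/Stag3, which overlap the same island of 10.2 kb with 952 reads. Stag3 is a meiotic cohesin subunit, the island held the Gpc2 TSS and not that of Stag3, and the peak over both TSSs was at percentile 32.1 in A2a and percentile 4.38 in D1. Il11/Tmem190, with a cytokine gene, had 9.8 kb with 754 reads and no peak, Lrrc75a/Mmgt2 had 9.2 kb with 649 reads beside the TSSs, and Ift80/Smc4 (a ciliary transport protein and a condensin subunit) had 4.8 kb with 369 reads that shared bases with a peak of 2.65 kb. In D1 alone, 4931428L18Rik/Pih1d3, with an assembly factor of ciliary dynein, had 6.0 kb with 206 reads, and Sncg/Mmrn2 had 1.6 kb with 57 reads. Neither had a peak. The A2a list is the longer. With only as many of the strongest A2a islands as the D1 list holds, 33 pair regions still had an A2a island, against 26 in D1. The part of depth in these counts was not tested.

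Where both marks met, peaks ranked lower by −log10 q. The strongest peak had a median percentile of 44.7 over 25 regions with an island and 83.3 over 671 without in A2a, and of 33.1 over 12 and 85.7 over 679 in D1. Median lengths were 1.31 and 1.82 kb in A2a, and 0.930 and 1.69 kb in D1. The median fold enrichment was 7.23 with an island and 7.89 without in A2a, a small gap, and 5.75 and 8.15 in D1. Peak and island shared bases in 23 of the 25 regions in A2a and in all 12 in D1. Of the 24 pairs that were marked in both lists at percentiles under 50 in each, 11 had an island. In the 21 pairs with a peak in both lists and an island in either, the percentile was higher in A2a in 17, against 327 of 669 pairs without an island. The A2a list of peaks is the longer. At the same rank from the top a peak therefore has a higher percentile in A2a, by more the weaker it is. The part of list length in these counts was not tested. The lists pool the nuclei of many cells, so marks that share bases may lie on the same or on different alleles and cells, and these cannot be told apart.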

How the data were processed

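CnR libraries of H3K4me3 (Abcam) and H3K27me3 (Active Motif) from A2a and D1 nuclei were analysed, 8 of 28 samples, through 4 lists that each pool 2 replicates. The other 20 samples were not analysed here. Per the labels, groups follow the sample titles. Alignment by the authors used Bowtie2 2.1.0 and the mm10 build. With SAMtools 0.1.19 they kept a mapping quality of 20 or more and inserts of 150 to 500 bp, and Picard took out duplicates. H3K4me3 peaks came from MACS2 (q-value of 0.01). For each of them the deposited list gives a ratio, the fold enrichment at the summit over the local background, together with its −log10 q-value and the offset of the summit. The authors called H3K27me3 islands with SICER (window 200 bp, gap 600 bp, false discovery rate 0.01) against a control that is not named in the sources used here. The deposited value of an island is a count of reads, without normalization. Depth per library is not part of the lists, which limits weak peaks and islands first.

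Genes and TSSs were taken from GENCODE vM21 and sequence from RefSeq GRCm38.p6, the same build. A peak or island counted at an overlap of at least 1 bp, and coordinates count from 1. Where several peaks or islands met a region, the one with the highest −log10 q or the most reads was described. Percentiles are the share of a list's values at or below a value. Words of 31 bases were counted on both strands of chromosomes 1 to 19, X and Y. The members, the 17 gene lists and the words searched were chosen with earlier results of these data known. Pairs were named by rules on rank within classes of peaks and islands, and the pairs without either mark, the lowest histone pair and the pairs with a peak inside a gene were chosen after their values were seen. The main alternatives were other distances, flanks, overlaps and thresholds, equal list sizes, fewer predicted names and 1 pair per gene. The procedures were tested on simulated lists. Results for 1 named pair and 1 sequence are not reported here. Python 3.11.15 ran the computations, with numpy 2.4.6, scipy 1.17.1 and, for the plots, matplotlib 3.10.9.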

Additional observations from a re-analysis of the deposited data

How the results depend on the processing

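The 10 shares of pair regions were recomputed under 9 alternatives. Of 90 values, 84 stayed within the 95% interval of the reported share and 6 did not. All 6 came from shorter distances. With pairs at most 500 bp apart (666 pairs), 1 peak held both TSSs in 96.4% of A2a-marked and 95.7% of D1-marked regions, and with pairs at most 300 bp apart (602 pairs) in 96.7% and 95.8%. A shorter stretch is also held by 1 peak more easily by construction. At 300 bp the strongest summit lay outside the stretch between the TSSs in 84.7% in A2a and 78.9% in D1, and a shorter stretch leaves less room for a summit between the TSSs by construction. Under all alternatives the shares with H3K4me3 ran from 94.6% to 95.7% in A2a and from 93.9% to 95.3% in D1. Those with H3K27me3 ran from 4.15% to 5.59% and from 2.82% to 4.09%, and those with both marks from 2.85% to 3.95% and from 1.33% to 2.18%. No paired analysis was possible because each list pools its replicates, and no replicate could be left out for the same reason.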

Other observations

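Opposite-strand pairs whose 5′ ends overlap were left out by the rule. There were 436 of them, with 853 genes in no head-to-head pair. Of these genes, 94.4% had an H3K4me3 peak within 1 kb of the TSS in A2a and 92.4% in D1, and 8.09% and 5.63% had an H3K27me3 island. Both marks were found at 4.69% and 2.11%. Genes of head-to-head pairs over 1000 and up to 2000 bp apart lay closer to all genes, with a peak at 59.8% of 199 genes in A2a and 56.3% in D1, and an island at 16.1% and 11.1%.

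The pairs whose H3K4me3 percentile differed most between the lists, chosen after their values were seen, were Xab2/Pet100, at percentile 57.4 in A2a and percentile 91.3 in D1, and Lnx2/Polr1d, at percentile 90.2 and percentile 59.0. Xab2 encodes a splicing and repair factor and Polr1d a subunit of RNA polymerases I and III. Each list is 1 pooled value, so these differences have no replicate error.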
